A study of Homo sapiens with 9 samples.

Results

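The 34 genes described here are listed as meiotic prophase genes, and they were selected by symbol from the 63856 genes of the count table. The set holds 2 genes of meiotic entry, 7 of the synaptonemal complex, 4 meiotic cohesin subunits, 2 axis proteins with a HORMA domain, 3 genes of break formation, 7 of strand exchange, 7 of crossover formation and 2 other germ cell genes. Each of the 34 had 1 row on a primary chromosome. Their RNA was measured by RNA-seq in TCam-2, an established line from a testicular seminoma, in 3 groups of 3 libraries from biological replicates. Wild type (WT) cells were not modified. The negative control (NC) received a px335_G2P vector with nonspecific gRNAs. The ESX1 group received 3 such vectors with gRNAs for sequence just upstream of the ESX1 start site together with PB-TRE-dCas9-VPR, a dCas9 fused to a transcriptional activator under a doxycycline-inducible promoter. Puromycin selection and doxycycline followed the transfection, and the sources used here do not state whether NC also carried dCas9-VPR. By the study's GFP counts not all cells of a transfected culture carried the vectors, so each of these libraries is a mixture.

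In meiotic prophase, retinoic acid and STRA8 start the programme, cohesins with meiotic subunits build a chromosome axis, SPO11 cuts the DNA, DMC1 and its helpers pair each end with the homologous chromosome, the synaptonemal complex closes between the homologs, and a small share of the joints become crossovers. Most of these genes are kept off in somatic cells. In seminoma, a tumour that resembles primordial germ cells, some of them are known to be transcribed.

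Total counts per library ranged from 5212804 to 10644408, and ESX1 replicate 3 was the shallowest. Mitochondrial genes took 17.0% to 18.3% of the counts in WT, 14.5% to 15.3% in NC and 19.2% to 19.9% in ESX1. Of 13 seminoma and primordial germ cell markers 12 passed the filter on low counts and ALPP did not, where 70.8% of protein-coding genes passed. POU5F1 was at 1267 ± 150 (SD, n = 3) normalized CPM (counts relative to the library's total, which is scaled by a TMM factor) in WT. Of 10 spermatid markers 9 had at most 3 counts in every library, and PRM1, PRM2, ODF1 and TXNDC8 had 0 counts in all 9 libraries. ESX1, the targeted gene, was at 3.60, 4.08 and 3.13 normalized CPM in the WT libraries, 3.63, 2.89 and 3.46 in NC, and 56.98, 55.7 and 31.4 in the ESX1 group. The difference was 3.75 on the log2 scale against WT (SE 0.24, adjusted p = 1.87e-08) and 3.85 against NC (SE 0.24, adjusted p = 4.48e-08, edgeR quasi-likelihood test with Benjamini-Hochberg adjustment over 18452 tested genes).

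The 34 genes were detected in part. Of the 34 genes 19 passed the filter (about 1.085 CPM in at least 3 libraries) and were tested, 6 had traces of reads and 9 were silent, defined as at most 3 counts in every library, which is 0.30 to 0.55 normalized CPM depending on the library. Among 18215 protein-coding genes matched by symbol, 70.8% were tested and 16.4% silent, against 55.9% of these genes tested. The silent genes were STRA8 (meiotic entry), SYCP1, SYCE3 and TEX12 (transverse filament and central element of the synaptonemal complex), the cohesin kleisin RAD21L1, the axis protein HORMAD2, SPO11 and MEI1 of break formation, and TEX101, a germ cell surface protein. SPO11 and TEX12 had 0 counts in all 9 libraries, which allows a level of up to that of 3 counts in each. Reads in 2 genes were not counted. The exon bases shared with other genes were 28.8% for STRA8, 25.2% for TEX12, 11.9% for HORMAD2 and 7.47% for RAD21L1, and 0% for the other silent genes. Counts were present in all 9 libraries for 20 genes, and YTHDC2, SYCP2, MLH3, BRCA2 and CCNB1IP1 were over 10 normalized CPM in every group. The 5 genes with counts in the ESX1 group and none in WT, SYCP1, RAD21L1, HORMAD1, MEI1 and TEX101, reached at most 4 counts in a library, which is too few to show a difference at this depth. Summed over the NC libraries they had 2, 4, 1, 2 and 0 counts in this order. Over all genes, 26950 to 28525 had counts in a WT library, 29358 to 30325 in an NC library and 29510 to 31190 in an ESX1 library.

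The 6 trace genes were too low to test. SMC1B, the meiotic SMC1 subunit of cohesin, had 8, 2 and 5 counts in the WT libraries, 2, 3 and 4 in NC, and 6, 6 and 2 in the ESX1 group. SPATA22, which binds single-stranded DNA with MEIOB, had 4 to 6 counts per library in WT, 4 to 9 in NC and 1 to 8 in ESX1. TEX11, an X-linked crossover gene, had 9 counts in WT replicate 1 and at most 5 in every other library. The other three, SYCE1 (central element), HORMAD1 (axis) and PRDM9, the methyltransferase that marks break sites, had at most 5 counts in any library. Groups overlapped for all 6. The exon bases shared with other genes were 54.3% for SYCE1, 26.6% for SPATA22 and 0% for the other trace genes.

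**Figure D1:**
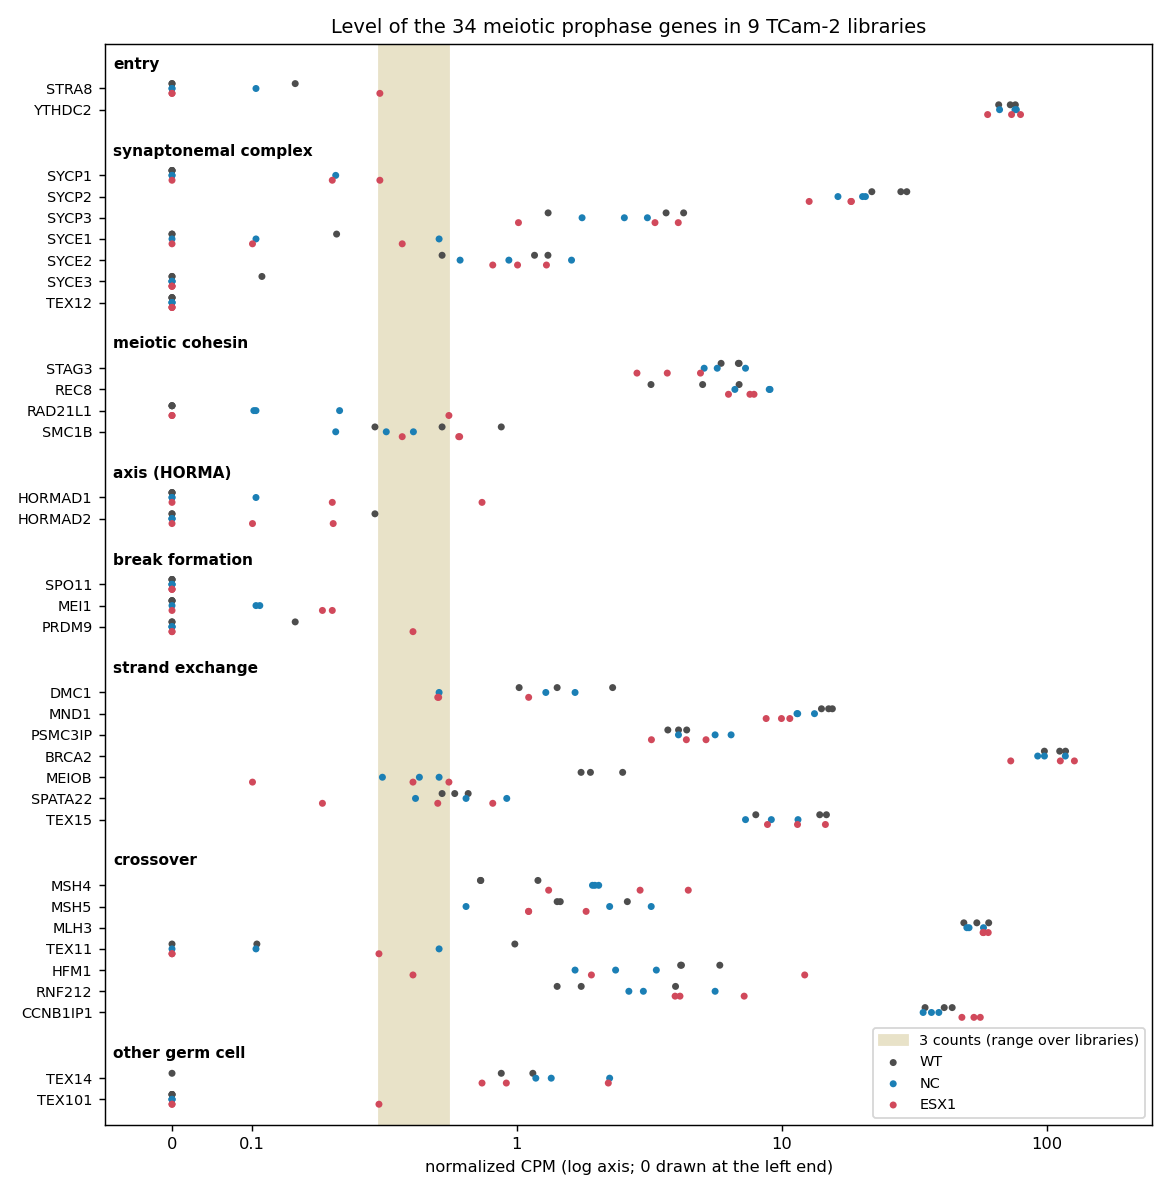
Normalized CPM on a log axis of the 34 genes in each of the 9 libraries, grouped by role, with WT in grey, NC in blue and ESX1 in red. The shaded band is the level of 3 counts, 0.30 to 0.55 normalized CPM. Axis (HORMA) and break formation genes have 0 counts in most libraries, drawn at the left end below the band. YTHDC2, MLH3, BRCA2 and CCNB1IP1 lie far to its right in all groups.

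Levels of different genes were compared per kilobase of exon. In WT the tested genes ran from 0.127 ± 0.113 (TEX14, an intercellular bridge protein) to 10.8 ± 1.28 normalized CPM per kb (CCNB1IP1, SD, n = 3). CCNB1IP1, MND1 (9.84 ± 0.471), BRCA2 (8.88 ± 0.825), YTHDC2 (6.61 ± 0.484) and MLH3 (6.51 ± 0.699) stood at the top. CCNB1IP1 and MND1 differed by less than the SD of CCNB1IP1, as did YTHDC2 and MLH3 by less than either SD. BRCA2 and MLH3 also work outside meiosis, in somatic recombination and mismatch repair. SYCP2 followed at 4.10 ± 0.636, while every other gene of the synaptonemal complex was below 1 normalized CPM per kb in WT.

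The meiotic subunits were set beside their mitotic counterparts, the ones that cells use in every division. In WT, RAD21 was at 71.7 ± 7.66 normalized CPM per kb and its meiotic counterpart REC8 at 1.31 ± 0.480, a ratio of 54.7. The ratio was 23.7 in NC and 28.1 in the ESX1 group. REC8 did not pass the test in any comparison, and RAD21 was lower than in WT in NC (log2 difference -0.50, adjusted p = 0.00474) and in the ESX1 group (-0.44, adjusted p = 0.00664, edgeR). For STAG3 the ratio of STAG2 to it was 30.7 in WT, 31.5 in NC and 50.9 in ESX1, and of STAG1 to it 14.5, 17.8 and 28.5. SMC1A was at 17.4 ± 1.48 in WT and SMC1B at 0.132 ± 0.0689 normalized CPM per kb.

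**Figure D2:**
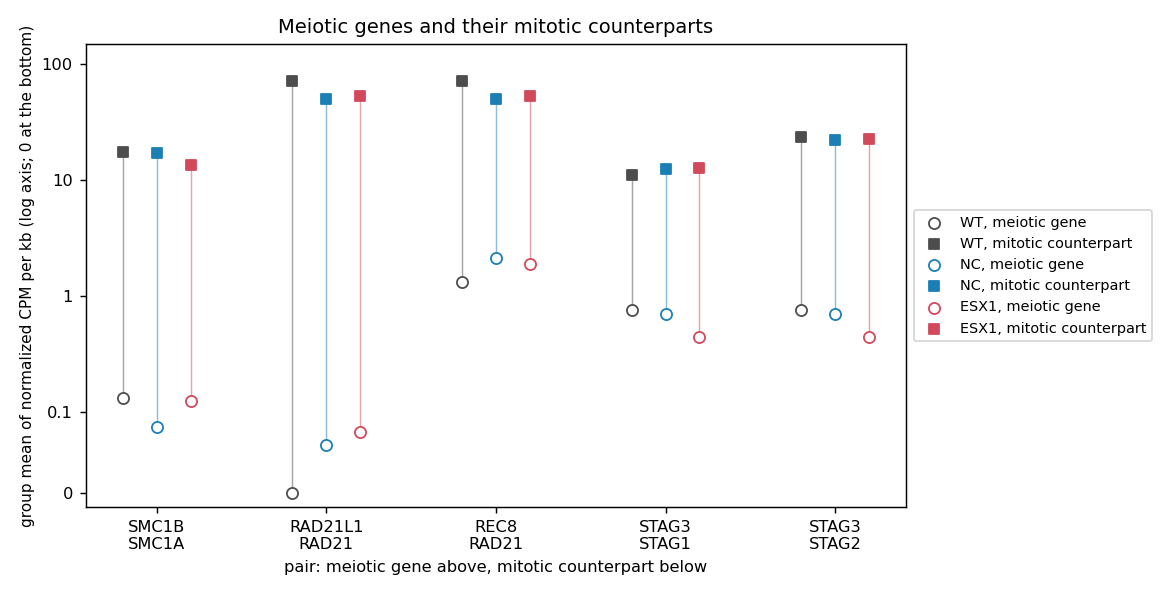
Group means of normalized CPM per kb on a log axis for 5 pairs of a meiotic gene (open circles) and a mitotic counterpart (squares), in WT (grey), NC (blue) and ESX1 (red). The squares lie above the circles in every pair and group, by 14.5 times for STAG3 and STAG1 in WT and 54.7 times for REC8 and RAD21 in WT; RAD21L1 had 0 counts in WT and is drawn at the bottom.

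Start-site sequences were examined for 2 motifs, because PRC1.6, the Polycomb complex that keeps meiotic genes off in other cells, contains E2F6 and the pair MGA and MAX. The E2F hexamer TCCCGC and the E-box CACGTG were searched on both strands in RefSeq windows (GRCh38.p14) from 250 bases before to 50 after the start, with 1 window per gene. Of the 34 genes 29 had a window; TEX12, HORMAD1, MEIOB, TEX15 and TEX14 had none. The hexamer was in 19 of 29 windows (65.5%), against 26.9% of all 27305 windows, 35.1% of protein-coding windows and 42.2% of those of tested protein-coding genes. The median was 25 CpG in these windows, 22 in protein-coding windows and 26 in those of tested protein-coding genes. Among windows with at least 20 CpG the shares were 15 of 21 (71.4%) and 51.3%. The E-box was in 2 of 29 windows (6.90%), STAG3 and BRCA2. It was in 7.44% of all windows, 8.89% of protein-coding windows and 9.73% of those of tested protein-coding genes. Among windows with at least 20 CpG the shares were 2 of 21 (9.52%) and 11.1%. No E-box overlapped a hexamer. Silent genes held the hexamer in 4 of 8 windows, trace genes in 4 of 5 and tested genes in 11 of 16. For 4 genes the listed start was over 500 bases from the 5' end of the gene in the count table: SYCE1 (1544 bases), PRDM9 (64023), SPATA22 (42033) and TEX101 (12885). Without them, a restriction chosen after seeing the data, the hexamer was in 16 of 25 windows (64.0%), in 4 of 7 of the silent genes, 1 of 2 of the trace genes and 11 of 16 of the tested genes. A motif match describes the letters of the window and shows no binding.

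The stretches below are the 120 bases before the start, with the hexamer in capitals in whichever orientation it occurs. The first 5 hold it at a silent gene (SPO11), a trace gene (SMC1B) and 3 tested genes (SYCP2, SYCP3 and RNF212). The last 3 lack it in this stretch: STRA8 is silent, MSH4 and CCNB1IP1 were higher in the ESX1 group than in WT, and the hexamer of MSH4 lies after its start. These 3 are examples. The other tested genes without the hexamer in the whole window did not pass the adjusted p against WT. Their log2 differences were -1.26 (DMC1), 0.05 (PSMC3IP), 0.10 (MLH3) and -0.10 (HFM1). A link between the hexamer and the change in the ESX1 group was not tested.
SPO11, chr20:57329683-57329802, plus strand: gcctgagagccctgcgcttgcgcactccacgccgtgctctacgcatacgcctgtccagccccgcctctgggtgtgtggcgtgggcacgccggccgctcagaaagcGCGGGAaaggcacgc
SMC1B, chr22:45413600-45413719, minus strand: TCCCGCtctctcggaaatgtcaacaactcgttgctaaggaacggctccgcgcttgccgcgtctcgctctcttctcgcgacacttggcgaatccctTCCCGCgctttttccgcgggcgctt
SYCP2, chr20:59933638-59933757, minus strand: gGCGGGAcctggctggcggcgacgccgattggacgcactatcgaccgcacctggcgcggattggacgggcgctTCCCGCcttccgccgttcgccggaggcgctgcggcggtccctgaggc
SYCP3, chr12:101739463-101739582, minus strand: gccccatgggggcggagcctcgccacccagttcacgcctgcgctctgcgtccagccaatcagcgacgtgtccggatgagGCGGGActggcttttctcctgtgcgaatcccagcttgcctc
RNF212, chr4:1113565-1113684, minus strand: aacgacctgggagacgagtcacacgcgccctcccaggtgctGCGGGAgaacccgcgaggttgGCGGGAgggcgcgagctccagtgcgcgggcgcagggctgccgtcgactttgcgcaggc
STRA8, chr7:135231795-135231914, plus strand: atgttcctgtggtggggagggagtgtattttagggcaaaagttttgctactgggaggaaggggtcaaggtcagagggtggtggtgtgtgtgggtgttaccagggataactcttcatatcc
MSH4, chr1:75796762-75796881, plus strand: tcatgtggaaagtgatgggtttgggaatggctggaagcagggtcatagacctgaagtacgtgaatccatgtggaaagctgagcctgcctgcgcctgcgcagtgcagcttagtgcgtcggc
CCNB1IP1, chr14:20333280-20333399, minus strand: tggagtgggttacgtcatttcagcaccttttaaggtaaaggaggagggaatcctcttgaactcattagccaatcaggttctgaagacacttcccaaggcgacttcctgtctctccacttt

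SPO11 at 0 counts and RNF212 at up to 7.20 normalized CPM both carry the hexamer close to the start. CCNB1IP1, the most abundant per kb in WT, has 6 CpG in its window and SYCP2 has 41.

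Activation of ESX1 was compared with each control, and a gene was called where it passed an adjusted p of 0.05 and changed at least 2-fold. Against WT 2 of 19 tested genes were called, where 11.5% of all tested genes were. MSH4 was higher, as were 6.78% of all tested genes, and MEIOB lower, as were 4.77%. MEIOB passed the filter on low counts through its 3 WT libraries alone, and MSH4 through the transfected groups with 1 of 3 WT libraries over it, so both counts are descriptions. SYCP2, STAG3 and MND1 were lower and CCNB1IP1 higher at an adjusted p below 0.05 with a smaller fold. That makes 6 of 19, with 2 higher and 4 lower, where 28.8% of all tested genes passed, 12.9% higher and 15.8% lower. Against NC 0 of 19 were called (1.78% of all tested genes), by edgeR, DESeq2 and limma alike, and 2 had an unadjusted p below 0.05, STAG3 and CCNB1IP1, where 16.0% of all tested genes did. CCNB1IP1 alone passed the adjusted p against NC without the fold, and was higher (4.25% of all tested genes passed, 1.88% higher). NC differed from WT in 1 of 19, MEIOB, with or without the fold (5.27% of all tested genes called, 2.15% lower, and 17.1% with no minimum fold). Against both controls in the same direction 0 of 19 were called, where 0.948% of all tested genes were higher and 0.585% lower. With no minimum fold 1 passed, CCNB1IP1, where 1.59% of all tested genes were higher that way. Both comparisons share the ESX1 libraries.

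Counted by libraries that did not overlap, the ESX1 group lay above WT in 2 of 19 genes (18.9% of all tested genes) and below it in 4 (21.3%). It lay above NC in 1 (10.7%) and below it in 2 (11.8%). NC lay above WT in 2 (17.6%) and below it in 4 (20.0%). The median log2 difference of the 19 genes was -0.06 for ESX1 from WT, -0.05 for ESX1 from NC and -0.09 for NC from WT, while over all tested genes it was 0.0066, 0.0004 and 0.0085. In bulk RNA, fewer cells of a kind and less RNA per cell cannot be told apart.

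**Figure D3:**
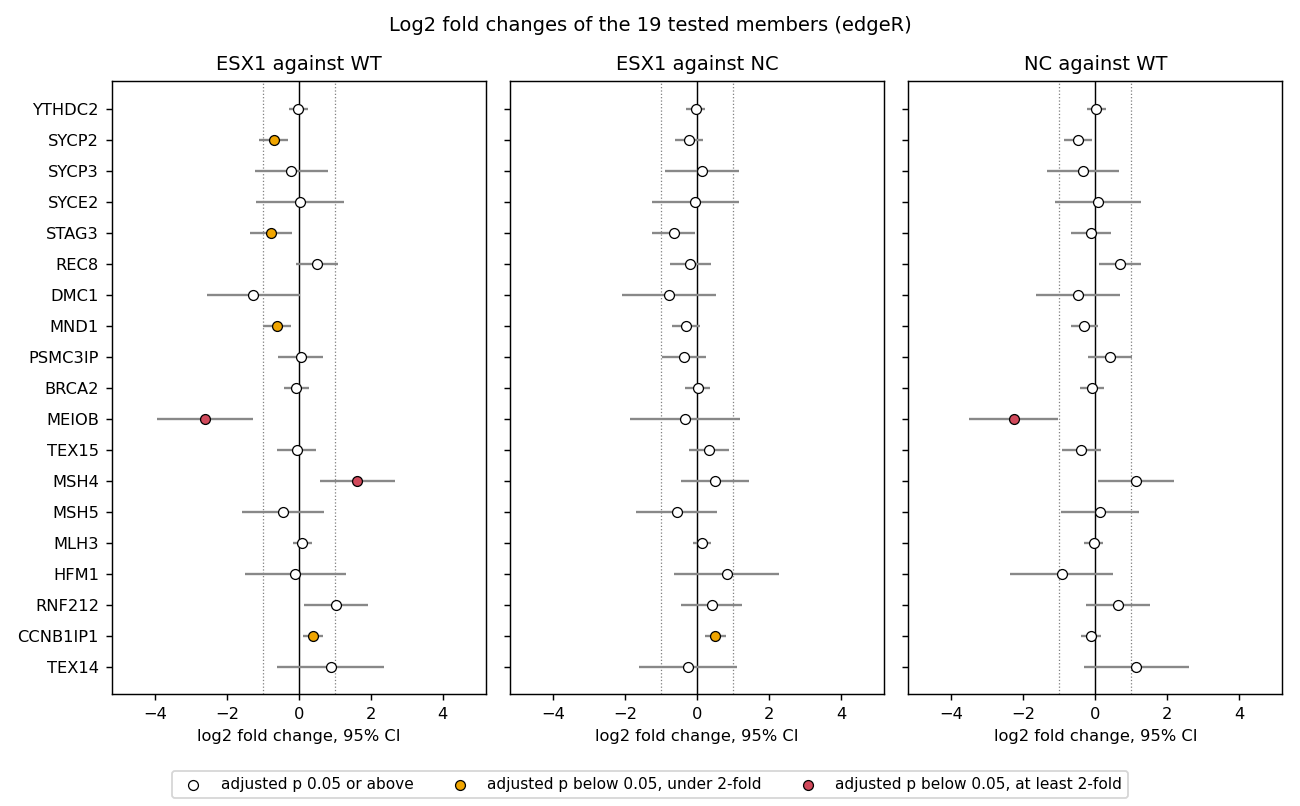
Log2 fold changes with 95% confidence intervals (x axis) of the 19 tested genes in the 3 comparisons, by edgeR. Red points passed the adjusted p of 0.05 and 2-fold, orange points the adjusted p alone and white points neither; MEIOB is red against WT in both the ESX1 group and NC, MSH4 in the ESX1 group, and CCNB1IP1 is the one coloured point against NC.

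Of the entry genes, YTHDC2, an RNA helicase that germ cells need to leave mitosis, was at 76.0, 65.7 and 72.7 normalized CPM in WT, 66.2, 76.6 and 75.7 in NC, and 59.7, 79.5 and 73.5 in the ESX1 group. The ranges overlapped, and the interval of the log2 difference from NC, -0.31 to 0.22, excludes a 2-fold change in either direction. MEIOC, the binding partner of YTHDC2, is no member of the 34. Of 17 tested genes in a list of further meiotic genes, it was the 1 that passed the adjusted p against NC, where 4.25% of all tested genes did. MEIOC was at 8.52, 10.9 and 10.2 normalized CPM in WT, 6.32, 8.90 and 9.57 in NC, and 15.8, 19.4 and 17.4 in ESX1. The ESX1 libraries lay above those of both controls without overlap, as for 6.39% of all tested genes. MEIOC was higher by 0.83 on the log2 scale than in WT (SE 0.21, adjusted p = 0.00582) and by 1.08 than in NC (SE 0.21, adjusted p = 0.00468, edgeR). Of all tested genes 1.59% were higher at the adjusted p against both controls. Its values under the alternatives are not reported here. Of its exon bases 32.7% are shared with neighbouring genes, among them CCDC43 on the other strand.

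Within the synaptonemal complex, SYCP2, a lateral element protein, was at 21.8, 29.6 and 28.1 normalized CPM in WT, 16.3, 20.2 and 20.7 in NC, and 12.7, 18.2 and 18.3 in the ESX1 group. Every ESX1 and every NC library was below every WT library, and ESX1 and NC overlapped. The log2 difference from WT was -0.70 (SE 0.19, adjusted p = 0.0103, edgeR) for the ESX1 group, and it passed the adjusted p in all 17 alternatives (0.00228 to 0.0493). For NC it was -0.48 (adjusted p = 0.0871); under a replicate block the adjusted p was 0.0337, and without WT replicate 1 it was 0.0373. SYCP3, the partner of SYCP2 in the lateral element, ranged from 1.01 to 4.26 normalized CPM over the 9 libraries with overlapping groups, and its interval against WT, -1.23 to 0.80, does not exclude a 2-fold fall. SYCE2 of the central element ranged from 0.522 to 1.61 normalized CPM, also with overlap. Exon bases shared with a gene on the other strand were 14.8% for SYCP3, 24.1% for SYCE2 and 0% for SYCP2.

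Among the cohesin subunits, STAG3 was at 5.90, 6.85 and 6.89 normalized CPM in WT, 5.70, 7.29 and 5.09 in NC, and 2.84, 4.93 and 3.69 in the ESX1 group. All ESX1 libraries were below all 6 controls, as for MND1 and for 7.21% of all tested genes. The log2 difference was -0.77 against WT (SE 0.28, adjusted p = 0.0478) and -0.65 against NC (SE 0.28, adjusted p = 0.248, edgeR). The difference from WT was 1.70-fold, and it did not pass the adjusted p in 13 of 17 alternatives, at values up to 0.200, DESeq2 among them at 0.0619. It did not pass without ESX1 replicate 1 (0.177) or 3 (0.120), without WT replicate 2 (0.111) or 3 (0.112) and without any one NC library (0.0635 to 0.0671). Of the STAG3 exon bases 32.3% are shared with GATS and PVRIG, and GATS, on the other strand, was lower than in WT too (-0.78, adjusted p = 0.0263). The part of these shared bases in the result was not tested. REC8 was at 5.02, 3.21 and 6.89 normalized CPM in WT, 6.65 to 9.02 in NC and 6.29 to 7.85 in ESX1. Its log2 difference of NC from WT was 0.68 (SE 0.27, adjusted p = 0.0959), and 0.97 without WT replicate 3 (adjusted p = 0.0422).

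Of the strand exchange genes, MEIOB, a meiotic single-strand DNA binding protein, had 16, 13 and 24 counts in WT, 3, 4 and 5 in NC, and 4, 1 and 3 in the ESX1 group. In normalized CPM these were 1.75, 1.90 and 2.51 in WT, 0.311, 0.429 and 0.509 in NC, and 0.406, 0.101 and 0.554 in ESX1. WT lay above both transfected groups without overlap. The log2 difference from WT was -2.61 (SE 0.63, adjusted p = 0.00472) in the ESX1 group and -2.27 (SE 0.58, adjusted p = 0.0129, edgeR) in NC. The ESX1 group and NC differed by -0.34, with an interval of -1.87 to 1.19. MEIOB passed the filter only through its WT libraries, so a difference from WT was a condition of its being tested and these p-values are no independent support. The call of NC was lost without NC replicate 1 (0.0760), NC replicate 2 (0.0585) or WT replicate 3 (0.0710). On the authors' log2 scale the differences were -0.82 and -0.74, under 2-fold. There 0 counts stand at 4.18, and MEIOB had means of 5.57 in WT, 4.83 in NC and 4.75 in ESX1. Differences near this floor are compressed, so 2-fold is not the same limit there as on the counts. FAHD1, on the other strand over 18.0% of its exon bases together with LINC00254, did not pass the test (0.37, adjusted p = 0.132).

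MND1, which with PSMC3IP loads the recombinase onto the homologous chromosome, was at 15.5, 15.01 and 14.1 normalized CPM in WT, 13.3, 11.5 and 11.4 in NC, and 8.72, 9.96 and 10.7 in the ESX1 group. The groups did not overlap, and NC lay between the others. The log2 difference of the ESX1 group from WT was -0.61 (SE 0.18, adjusted p = 0.0200, edgeR), and from NC -0.31 (SE 0.19, adjusted p = 0.460). The first did not pass without ESX1 replicate 1 (0.0715) or WT replicate 2 (0.0553), with no filter (0.0601) and with only the 6 libraries compared (0.0547). PSMC3IP, its partner, ranged from 3.22 to 6.43 normalized CPM over the 9 libraries with overlap, and 29.9% of its exon bases are shared with MLX on the other strand. DMC1, the meiotic recombinase, was at 1.02 to 2.30 normalized CPM in WT, 0.509 to 1.66 in NC and 0.503 to 1.11 in ESX1, and its log2 difference of -1.26 against WT had an interval of -2.54 to 0.02 (adjusted p = 0.132). BRCA2, a recombination mediator, and TEX15, a germ cell gene of break repair, overlapped between all groups, at 73.0 to 127 and 7.29 to 14.7 normalized CPM.

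Of the 6 tested crossover genes MSH4 was called higher against WT, and CCNB1IP1 passed the adjusted p against both controls with a smaller fold. MSH4, which forms with MSH5 the clamp that holds recombination intermediates, was at 1.20, 0.729 and 0.731 normalized CPM in WT, 1.97, 1.93 and 2.04 in NC, and 1.32, 2.92 and 4.43 in the ESX1 group, from 5 to 29 counts per library. All ESX1 and NC libraries were above all WT libraries, and the ESX1 range included the NC range. The log2 difference from WT was 1.63 (SE 0.50, adjusted p = 0.0204) in ESX1 and 1.13 (SE 0.50, adjusted p = 0.130) in NC, and that of ESX1 from NC 0.49 (SE 0.45, adjusted p = 0.665, edgeR). The call rested on single libraries: it was lost without ESX1 replicate 3 (1.26, adjusted p = 0.106), without WT replicate 2 (0.0666) or without WT replicate 3 (0.0680). MSH5 ranged from 0.643 to 3.21 normalized CPM with overlapping groups, and 47.3% of its exon bases are shared with a readthrough gene and its neighbour.

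CCNB1IP1, a SUMO or ubiquitin ligase of crossover formation that was first described as a regulator of cyclin B, was at 43.9, 41.0 and 34.7 normalized CPM in WT, 34.1, 36.7 and 39.1 in NC, and 47.8, 56.0 and 53.0 in the ESX1 group. It was the one gene of the 34 with all ESX1 libraries above all 6 controls, as 6.39% of all tested genes were. The difference on the log2 scale was 0.39 against WT (SE 0.13, adjusted p = 0.0358) and 0.51 against NC (SE 0.13, adjusted p = 0.0367, edgeR), 1.31-fold and 1.43-fold. Each passed in 11 of 17 alternatives. Against NC it did not pass without any one NC library (0.0961 to 0.163), without ESX1 replicate 2 (0.0981) or 3 (0.0915), and without WT replicate 2 (0.0570). Against WT it did not pass without ESX1 replicate 2 (0.106) or 3 (0.0645) and without WT replicate 2 (0.0832) or 3 (0.173). A pseudogene copy, CCNB1IP1P1, was at 1.26 normalized CPM in the ESX1 group and 0.167 in WT, so reads could be split between the copies.

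RNF212, another crossover ligase, was at 1.42, 1.75 and 3.97 normalized CPM in WT, 5.60, 3.00 and 2.65 in NC, and 3.95, 4.13 and 7.20 in ESX1. WT replicate 3 overlapped the ESX1 group, the log2 difference from WT was 1.04 (SE 0.42, adjusted p = 0.0754, edgeR), and without that library it was 1.65 (adjusted p = 0.0141). It also passed the adjusted p with no filter (0.0435) and with limma on the authors' log2 values (0.0419). HFM1, the helicase of crossover formation, had the highest coefficient of variation within a group among the 19 tested genes, at 0.406, 1.91 and 12.2 normalized CPM in the ESX1 libraries, from 4, 19 and 66 counts. In WT it was at 4.15, 5.83 and 4.18 and in NC at 1.66, 2.36 and 3.36. The ESX1 libraries surrounded both controls, and their coefficient of variation, 1.33, was reached by 0.173% of all tested genes. Without ESX1 replicate 3, the shallowest library, HFM1 was lower than in WT by a log2 difference of -1.98 (adjusted p = 0.0152); with it the difference was -0.10 (SE 0.67). MLH3, an endonuclease subunit that cuts crossover intermediates, was even across the groups at 48.6 to 60.3 normalized CPM. TEX14, outside the crossover genes, ranged from 0 to 2.24 normalized CPM.

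**Figure D4:**
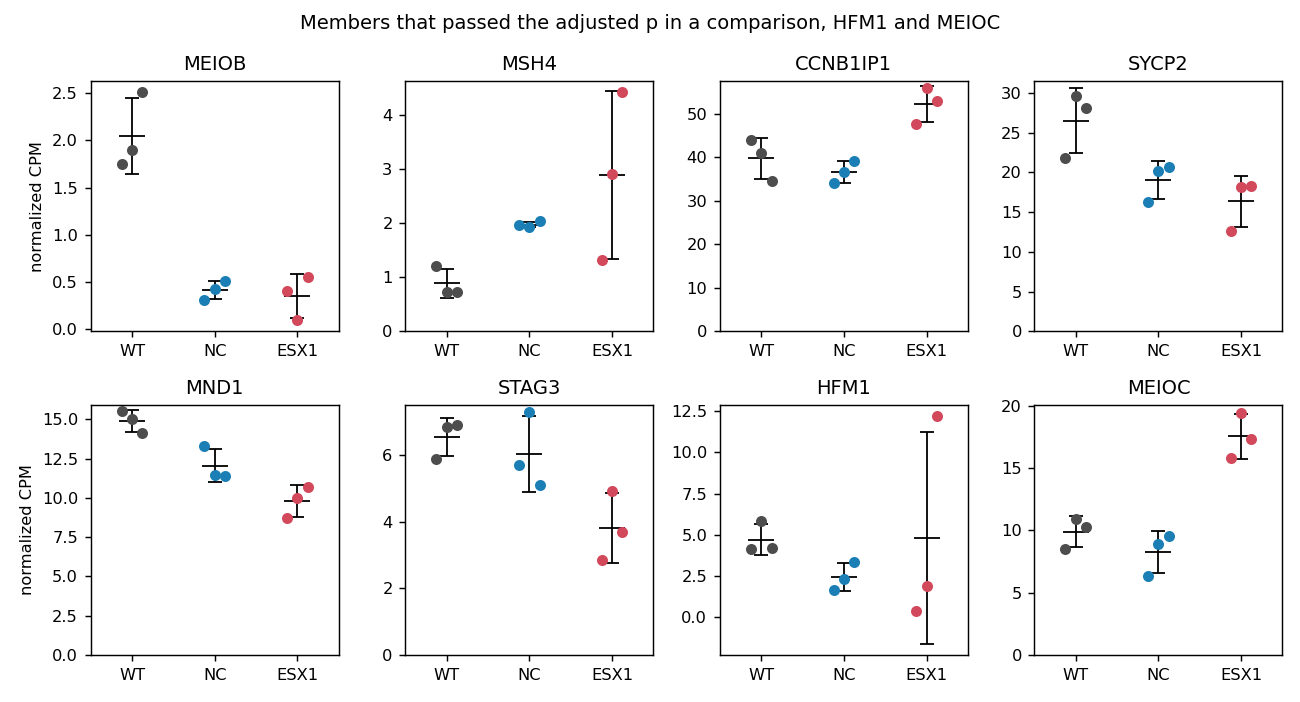
Normalized CPM per library (points, WT grey, NC blue, ESX1 red) with the mean and SD (black bars, n = 3) of the 6 genes that passed the adjusted p in a comparison, of HFM1 and of MEIOC. CCNB1IP1 and MEIOC in ESX1 lie above all controls and MND1 and STAG3 below them, MEIOB is low in both transfected groups, and HFM1 in ESX1 runs from 0.406 to 12.2.

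The other gene lists were counted at an adjusted p below 0.05, which 12.9% of all tested genes passed upward and 15.8% downward against WT. Of 34 further meiotic genes 17 were tested, 12 had traces and 5 were silent, and against WT 1 was higher (MEIOC) and 2 were lower: TRIP13, a remodeller of HORMA proteins that also acts in mitosis (-0.87, adjusted p = 6.16e-05), and SGO2, a protector of cohesin (-0.37, adjusted p = 0.0422, edgeR). Against NC MEIOC was the one that passed. Of 34 mitotic counterparts and shared recombination genes 11 were lower against WT and 0 higher, among them the mismatch repair gene MSH6 (-0.84, adjusted p = 3.03e-05), with a list median of -0.29. NC was lower than WT in 9 of them, where 10.3% of all tested genes were, and 0 of 34 passed between ESX1 and NC.

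All 12 proliferation genes were lower in the ESX1 group than in WT, 10 of 12 were lower in NC than in WT, and MKI67 was the one that passed between ESX1 and NC (-0.47, adjusted p = 0.00792, edgeR), where 2.37% of all tested genes were lower. MND1, SYCP2 and STAG3 were lower in the same libraries, and the part of proliferation in these values was not tested. Of 12 PRC1.6 genes 4 were lower against WT, CBX3 (-0.97, adjusted p = 2.74e-05), RNF2, TFDP1 and WDR5, and 0 passed against NC. E2F6 was at 41.4 normalized CPM in WT, 39.2 in NC and 45.7 in ESX1 and did not pass the test. Of the 12 tested seminoma markers 11 were lower against WT and 8 against NC, with NANOG at -2.03 (adjusted p = 9.53e-09) and -1.26 (adjusted p = 7e-06). Their summed level was 4228 to 5267 normalized CPM in WT, 3227 to 3450 in NC and 1838 to 2222 in ESX1. The 1 tested spermatid marker did not pass in any comparison. Summed spermatid markers were at 1.02 to 1.75, 1.53 to 2.59 and 1.41 to 4.62 normalized CPM, and 12 Sertoli, Leydig and fibroblast markers, of which INSL3 and HSD3B2 had 0 counts, at 46.8 to 56.7, 42.5 to 49.6 and 32.2 to 58.6. Of these 12, 6 were tested, 1 passed against WT and 1 against NC, SOX9, which was higher (1.83, adjusted p = 0.0120). Of 14 spermatogonial markers 7 were tested, and 5 were lower against WT, among them GFRA1 (-3.96, adjusted p = 1.77e-08). NC was lower than WT in 3 of these markers (10.3% of all tested genes), and ESX1 was lower than NC in 2 (2.37%). Their part in the values of the meiotic genes was not tested.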

How the data were processed

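RNA-seq of 9 TCam-2 samples was analysed, 3 each of WT, NC and ESX1, grouped by the sample labels. Read pairs were aligned by the authors with HISAT2 2.0.5 to GRCh38, and featureCounts gave the counts of each gene. The header of the count table names version 1.5.2 and GENCODE 26, and the submitters' processing notes version 1.6.5. The kit was stranded, but no strand option was set and reads in 2 genes were left out, so antisense overlaps cannot be resolved. The deposited counts are not normalized. The authors also deposited DESeq2-normalized values on a log2 scale, whose transformation is not given in the sources used here. These values served as an alternative, and 0 counts stand at 4.18 on their scale. The 34 symbols and the other lists were chosen with earlier results of these data known.

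For the tests, edgeR 4.0.16 in R 4.3.3 was run on the counts (filterByExpr, TMM factors, glmQLFit and glmQLFTest on 3 group means over 9 samples, Benjamini-Hochberg over 18452 genes). Differences are log2 fold changes with standard errors and 95% intervals. Normalized CPM uses TMM-scaled totals, and the deepest library had 10644408 counts and the shallowest 5212804. The script was tested on simulated data. Values of some genes of the other lists are not reported here. All members are described, with values per library for those that passed the adjusted p in a comparison. Start-site windows come from RefSeq, the one nearest to the 5' end in the count table where several were listed. Alternatives were DESeq2 1.42.0, limma 3.58.1 on the log2 values, RLE factors, other filters, a replicate block, thinning to the smallest total, only the 6 samples compared and leaving out each library.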

Additional observations from a re-analysis of the deposited data

How the results depend on the processing

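Against WT the 2 calls were found with DESeq2, RLE factors, the replicate block and only the 6 samples compared. The number called was 3 with no filter, 1 when every library was thinned to the smallest total, 0 with at least 10 counts in every sample (11 genes tested, without MEIOB and MSH4), 0 with limma on the authors' log2 values and 6 with no minimum fold. It was 1 to 3 with each replicate left out: 1 (MEIOB) without WT replicate 2, while the 2 called without ESX1 replicate 3 were MEIOB and HFM1 and without WT replicate 3 MEIOB and RNF212. For NC against WT the 1 call became 0 with at least 10 counts in every sample, 0 with limma and 0 when thinned, and was 0 to 1 with each replicate left out, 0 without NC replicate 1, NC replicate 2 or WT replicate 3. The authors' log2 scale compresses differences of genes with few counts, so the 2-fold limit is harder to reach with limma in each comparison. Against NC 0 genes were called in every alternative except with no minimum fold, which gave 1, and against both controls likewise 0 and 1. The silent genes numbered 2 at a limit of 0 counts, 15 at 10 counts, 12 when thinned and 9 to 10 with a library left out. No log2 difference that passed the adjusted p changed sign.

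With the replicate block the numbers called were 2, 0 and 1 in the 3 comparisons, and SYCP2 in NC passed the adjusted p without the fold (-0.47, adjusted p = 0.0337). Samples of equal replicate number moved together weakly or not at all (correlations of -0.03 to 0.19 across genes). The highest were 0.19 for replicate 1 and 0.09 for replicate 2 of ESX1 and NC. With the block more of all tested genes passed the adjusted p: 1052 for ESX1 against NC (784 without it), 5744 for ESX1 against WT (5306) and 3720 for NC against WT (3158). Whether equal replicate numbers share a batch was not tested. With no filter, STAG3 (0.0973), MND1 (0.0601) and CCNB1IP1 (0.0654) did not pass the adjusted p against WT. Values under about 10 counts are limited by depth, such as those of MEIOB in NC and ESX1 and of MSH4 in WT replicates 2 and 3 (5 and 7 counts).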
